A study of Mus musculus with 12 samples.

Results

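A set of 37 genes that mark macrophages and monocytes was followed in mouse ear skin. The genes were picked by name from a list of myeloid markers, and are 37 of the 23234 gene symbols in each expression table. A total of 36 were found under their listed symbol, and Spi1 under its older symbol Sfpi1, a synonym in RefSeq. Expression was measured by RNA sequencing in 12 libraries that form 4 groups of 3, all from mice aged 8 to 12 weeks. The group called VDRcKO_Oxarol here is labelled K5-Cre;VDR f/f, in which the Cre recombinase is driven by the keratin 5 promoter, active in basal keratinocytes, and cuts the floxed vitamin D receptor gene Vdr; its ears received Oxarol, an ointment with the vitamin D analogue maxacalcitol (100 mg of ointment, 2.5 µg of maxacalcitol), and were taken 1 day later. Its strain is given as the genotype only. WT_Oxarol ears came from wild-type C57BL/6J mice given the same ointment, again taken after 1 day. WT_PBS ears were wild type and taken 1 day after phosphate-buffered saline (PBS), which is not the ointment base, and WT_untreated ears were wild type with no treatment. No group of the K5-Cre;VDR f/f genotype without ointment was among the samples, so genotype and the response to the ointment cannot be told apart in VDRcKO_Oxarol.

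Macrophages of the skin descend from embryonic precursors and from blood monocytes, and depend on signals through the receptor Csf1r and on the transcription factor encoded by Spi1. They sit mainly in the dermis, where they take up dead cells, microbes and matrix fragments through scavenger, lectin and Fc receptors and break them down in lysosomes. Many of the markers are shared: neutrophils, dendritic cells and mast cells also use the integrins, Fc receptor chains and the oxidase, and Lyve1 marks lymphatic vessels as well. In whole tissue, more macrophages and more RNA of these genes per macrophage cannot be told apart.

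The genotype label was checked first. Vdr stood at 23.6, 25.04 and 18.0 FPKM (fragments scaled to transcript length in kilobases and to all fragments mapped) in VDRcKO_Oxarol. In WT_Oxarol it stood at 7.87, 6.68 and 7.05 FPKM, in WT_PBS at 9.28, 10.1 and 9.43 FPKM and in WT_untreated at 4.87, 9.35 and 9.57 FPKM. Vdr was thus higher in VDRcKO_Oxarol, where the label would have it lower. Each value covers the entire gene, with the exons that Cre leaves in place and the cells that lack Cre. Why Vdr was higher was not tested. Cyp24a1, the vitamin D-degrading enzyme and a direct receptor target, was listed at 0, 0.271 and 0.175 FPKM in VDRcKO_Oxarol and stood at 66.2, 599 and 458 FPKM in WT_Oxarol. Between 17323 and 19478 genes were above 0 in a library. The tables give no read counts; from the steps between low values, the VDRcKO_Oxarol libraries held about 0.040 to 0.059 of the fragments of WT_PBS replicate 3, and the other 8 libraries 0.065 to 0.212. These estimates could be off by a factor of 2, and VDRcKO_Oxarol replicate 3 (0.059) and WT_Oxarol replicate 3 (0.065) differ by far less than that, so the order of these libraries is not settled. The library codes in the labels form 2 number series: all 3 VDRcKO_Oxarol libraries and replicate 3 of each wild type group belong to the second series. The labels do not call the series a batch, nor do they tell if replicates were different mice, and the p-values here reflect no more than how far these libraries vary, which may be technical.

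All 37 genes were detected in every library and all passed the filter on low values (1 FPKM or more in at least 3 libraries). Their levels in untreated skin spanned a wide range. The lysozyme gene Lyz2 was the most abundant at 276 ± 49.6 FPKM (SD, n = 3), followed by C1qc at 129 ± 17.6 FPKM (SD, n = 3) and Fcer1g at 111 ± 22.8 FPKM (SD, n = 3). The lowest were Fcgr1 at 0.604 ± 0.106 FPKM (SD, n = 3) and Marco at 0.792 ± 0.392 FPKM (SD, n = 3). FPKM is scaled to transcript length, so these levels can be set against each other.

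The first comparison, VDRcKO_Oxarol against WT_Oxarol, sets the 2 genotypes under the same ointment side by side. Of the 37 genes 19 were higher in VDRcKO_Oxarol and 0 lower. The test was limma on log2(FPKM + 1), with a Benjamini-Hochberg adjusted p under 0.05 over all 14059 genes tested. At an unadjusted p under 0.05, 26 were higher and 0 lower, where 4531 of all genes tested passed in either direction. The 19 genes are 51.4% of the set, where 8.71% of all genes tested were called higher and 4.43% lower. With quantile normalization 5.83% of all genes were higher and 9.19% lower, and of the set again 19 were higher and 0 lower. The higher genes cover the growth factor receptor Csf1r and the lineage factor Spi1, the surface marker Emr1, Fc receptors, the C1q chains C1qa and C1qb, and the lysosomal and bactericidal genes Lyz1, Lyz2, Cybb and Ctss. The changes were moderate: the median of the 37 differences was 0.48 on the log2(FPKM + 1) scale, against 0.08 over all genes tested, and the range ran from -0.14 for Cd14 to 1.03 for Trem2. Of the 37 differences 34 lay above 0.

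**Figure D1:**
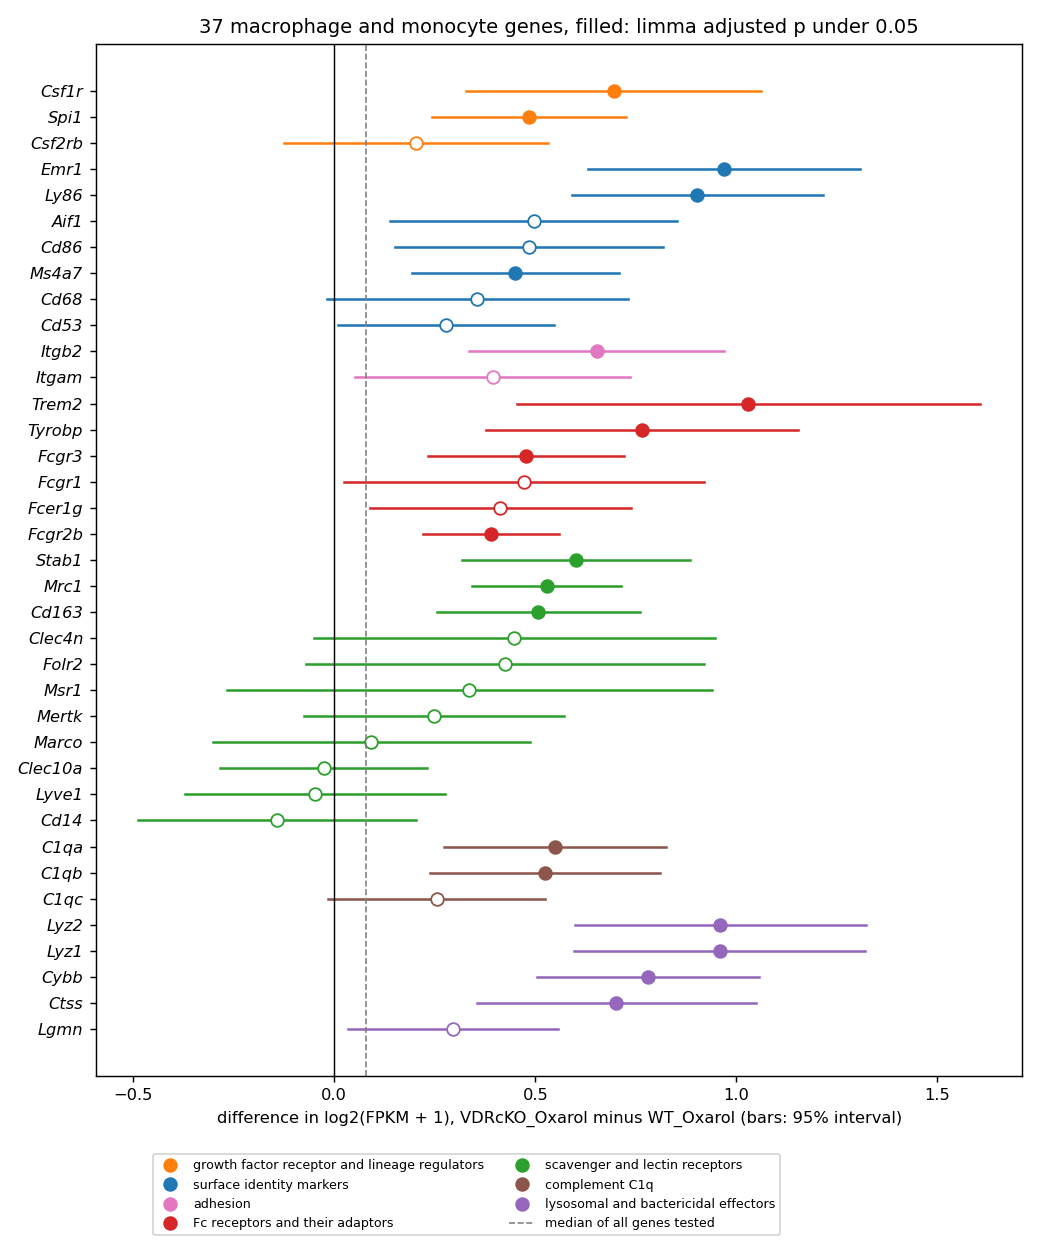
Difference in log2(FPKM + 1), VDRcKO_Oxarol minus WT_Oxarol, for each of the 37 genes, grouped by role. Points are estimates, bars 95% intervals from limma, filled points have an adjusted p under 0.05, and the dashed line is the median of all genes tested (0.08). The 3 genes left of 0 (Cd14, Lyve1 and Clec10a) are all scavenger or lectin receptors, and none of the 3 is filled.

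Among the growth factor receptors and lineage regulators, Csf1r and Spi1 rose and Csf2rb was not called. Csf1r is the receptor for macrophage colony-stimulating factor, on which most tissue macrophages depend. It stood at 36.1, 27.3 and 32.0 FPKM in VDRcKO_Oxarol, against 19.0, 18.1 and 20.5 FPKM in WT_Oxarol, 14.6, 16.7 and 17.8 FPKM in WT_PBS and 12.3, 20.6 and 17.5 FPKM in WT_untreated. All 3 VDRcKO_Oxarol values lay above all 9 wild type values, the WT_untreated values overlapped those of both other wild type groups, and the lowest WT_Oxarol value was just above the highest WT_PBS value. The difference from WT_Oxarol was 0.69 ± 0.17 log2 units (SE, adjusted p = 0.0262). Spi1 encodes the transcription factor PU.1, which sets the myeloid programme. Its values were 27.9, 25.1 and 26.5 FPKM in VDRcKO_Oxarol, against 16.2, 18.2 and 22.03 FPKM in WT_Oxarol, 18.9, 16.8 and 18.4 FPKM in WT_PBS and 13.5, 15.0 and 12.9 FPKM in WT_untreated. The VDRcKO_Oxarol libraries were again above all wild type libraries, and the untreated libraries were the lowest. Spi1 differed from WT_Oxarol by 0.48 ± 0.11 log2 units (SE, adjusted p = 0.0222). Csf2rb, the shared signalling chain of the receptors for granulocyte-macrophage colony-stimulating factor and related cytokines, ranged from 2.998 to 3.94 FPKM in VDRcKO_Oxarol and 2.56 to 2.94 FPKM in WT_Oxarol, with a difference of 0.20 ± 0.15 log2 units (SE, adjusted p = 0.366). Its transcript is 91.7% identical to that of its neighbour Csf2rb2 over the aligned stretch, so reads of the pair may be shared.

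Of the 7 surface markers, Emr1, Ly86 and Ms4a7 were higher. Emr1, now named Adgre1, encodes the F4/80 antigen, the usual surface marker of mouse macrophages. Its values were 22.2, 16.5 and 16.4 FPKM in VDRcKO_Oxarol, against 8.17, 8.74 and 9.53 FPKM in WT_Oxarol, 6.01, 5.504 and 8.48 FPKM in WT_PBS and 9.06, 8.10 and 8.87 FPKM in WT_untreated. The groups of VDRcKO_Oxarol and WT_Oxarol were far apart relative to their spread, and replicate 1 of VDRcKO_Oxarol stood above the other two. Emr1 rose by 0.97 ± 0.15 log2 units (SE, adjusted p = 0.00765), and its mean FPKM in VDRcKO_Oxarol was 2.08 times that in WT_Oxarol. Ly86 encodes the secreted partner of the Toll-like receptor homologue Cd180. It was measured at 22.01, 20.5 and 19.7 FPKM in VDRcKO_Oxarol, against 11.1, 8.67 and 12.3 FPKM in WT_Oxarol, 8.66, 8.19 and 10.4 FPKM in WT_PBS and 14.3, 11.6 and 10.8 FPKM in WT_untreated. No wild type library reached the lowest VDRcKO_Oxarol library. Ly86 rose by 0.90 ± 0.14 log2 units (SE, adjusted p = 0.00765). Ms4a7, a four-span membrane protein of macrophages, ranged over 46.2 to 50.4 FPKM in VDRcKO_Oxarol and 32.3 to 38.4 FPKM in WT_Oxarol, a rise of 0.45 ± 0.12 log2 units (SE, adjusted p = 0.0333). The other 4 were not called. Aif1, an actin-bundling protein of activated macrophages, differed by 0.50 ± 0.16 log2 units (SE, adjusted p = 0.0666). Cd86, a costimulatory ligand for T cells, differed by 0.48 ± 0.15 log2 units (SE, adjusted p = 0.0574). For Cd68, a lysosomal glycoprotein and common histology marker, the difference was 0.36 ± 0.17 log2 units (SE, adjusted p = 0.173) and its 95% interval, -0.02 to 0.73, includes 0. Cd53, a tetraspanin of leukocytes in general, differed by 0.28 ± 0.12 log2 units (SE, adjusted p = 0.144).

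**Figure D2:**
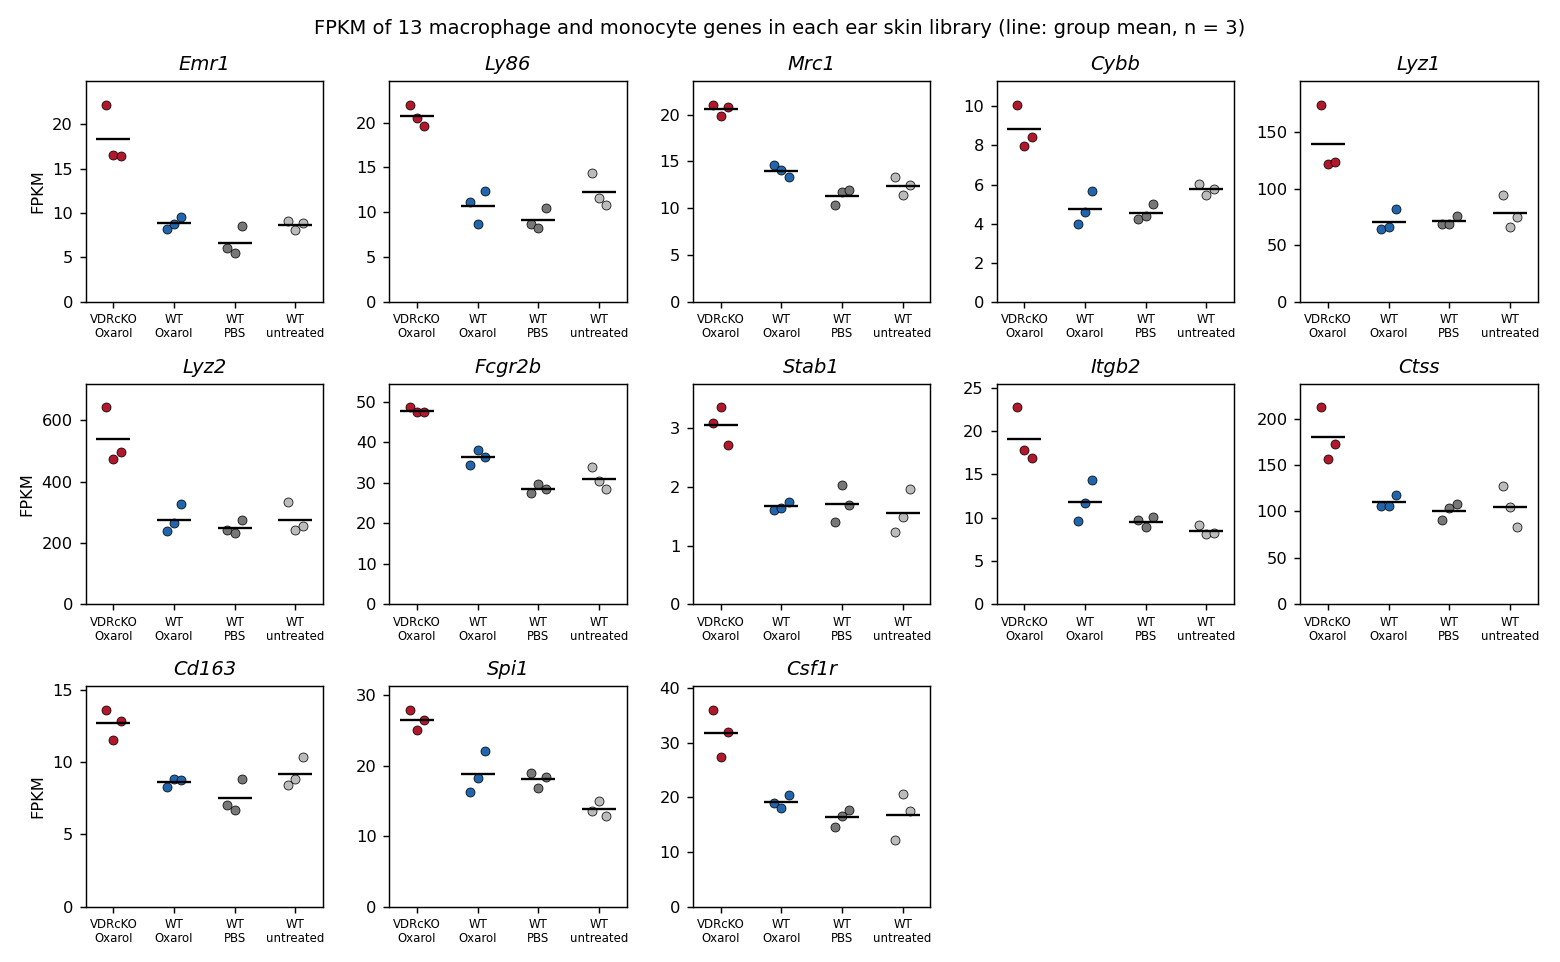
FPKM of 13 of the genes in each library (points) with group means (lines), n = 3 per group, each y axis starting at 0. The 3 VDRcKO_Oxarol points lie above all 9 wild type points in every panel; for Emr1 they range from 16.4 to 22.2 FPKM.

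Of the 2 integrin chains, Itgb2 rose and Itgam was not called. Itgb2 is the beta chain common to the leukocyte integrins, and Itgam pairs with it to form the complement receptor Mac-1. Itgb2 was present at 22.8, 17.8 and 16.9 FPKM in VDRcKO_Oxarol, against 9.58, 11.7 and 14.3 FPKM in WT_Oxarol, 9.73, 8.87 and 10.05 FPKM in WT_PBS and 9.19, 8.14 and 8.20 FPKM in WT_untreated. Again no wild type library reached the VDRcKO_Oxarol range, although WT_Oxarol replicate 3 came nearest. The rise was 0.65 ± 0.14 log2 units (SE, adjusted p = 0.0207). Itgam was far lower in level, with 1.55 to 2.53 FPKM in VDRcKO_Oxarol and 1.25 to 1.46 FPKM in WT_Oxarol, and differed by 0.39 ± 0.16 log2 units (SE, adjusted p = 0.111).

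Of 6 Fc receptors and adaptors, Fcgr2b, Fcgr3, Tyrobp and Trem2 were higher. Fcgr2b is the inhibitory receptor for IgG. It measured 48.7, 47.5 and 47.4 FPKM in VDRcKO_Oxarol, against 34.4, 38.1 and 36.5 FPKM in WT_Oxarol, 27.5, 29.7 and 28.4 FPKM in WT_PBS and 33.9, 30.5 and 28.6 FPKM in WT_untreated. The 3 VDRcKO_Oxarol values were nearly equal, and the WT_Oxarol values lay above every WT_PBS and untreated value. The rise over WT_Oxarol was 0.39 ± 0.08 log2 units (SE, adjusted p = 0.0152). Fcgr3, the low-affinity activating IgG receptor, had 62.8 to 78.2 FPKM in VDRcKO_Oxarol and 48.4 to 52.4 FPKM in WT_Oxarol, a rise of 0.48 ± 0.11 log2 units (SE, adjusted p = 0.0234). The longest coding transcripts of Fcgr3 and Fcgr2b are 95.8% identical over 521 aligned bases, and 12.8% of the 50-base windows of Fcgr3 also occur in Fcgr2b, so a part of the reads could be assigned to either. Trem2 is a lipid receptor that signals through the adaptor Tyrobp. Both rose: Trem2 by 1.03 ± 0.26 log2 units (SE, adjusted p = 0.0313) and Tyrobp by 0.77 ± 0.18 log2 units (SE, adjusted p = 0.0230). Trem2 had the largest difference of the 37 genes and also the widest error among the genes that rose. The high-affinity IgG receptor Fcgr1 (0.47 ± 0.20 log2 units, adjusted p = 0.137) and the shared signalling chain Fcer1g (0.41 ± 0.15 log2 units, adjusted p = 0.0836) were not called.

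The 11 scavenger and lectin receptors were the most divided group: Mrc1, Stab1 and Cd163 rose and 8 were not called. Mrc1 is the mannose receptor, which clears glycoproteins and microbes. Its values were 21.1, 19.9 and 20.8 FPKM in VDRcKO_Oxarol, against 14.6, 14.1 and 13.3 FPKM in WT_Oxarol, 10.3, 11.7 and 11.9 FPKM in WT_PBS and 13.3, 11.4 and 12.5 FPKM in WT_untreated. All 4 groups were tight, and VDRcKO_Oxarol stood clear of the rest. The rise was 0.53 ± 0.08 log2 units (SE, adjusted p = 0.00781). Stab1, stabilin, takes up modified lipoproteins and matrix proteins. It was measured at 3.09, 3.36 and 2.72 FPKM in VDRcKO_Oxarol, against 1.61, 1.65 and 1.75 FPKM in WT_Oxarol, 1.39, 2.03 and 1.69 FPKM in WT_PBS and 1.22, 1.49 and 1.97 FPKM in WT_untreated. The level was low but the VDRcKO_Oxarol libraries were all above the wild type ones, and Stab1 rose by 0.60 ± 0.13 log2 units (SE, adjusted p = 0.0193). Cd163, the receptor for haemoglobin bound to haptoglobin, stood at 13.6, 11.6 and 12.9 FPKM in VDRcKO_Oxarol, against 8.25, 8.80 and 8.79 FPKM in WT_Oxarol, 6.996, 6.67 and 8.84 FPKM in WT_PBS and 8.43, 8.83 and 10.3 FPKM in WT_untreated. The lowest VDRcKO_Oxarol library exceeded the highest wild type library, an untreated one, by a small margin, and the rise over WT_Oxarol was 0.51 ± 0.11 log2 units (SE, adjusted p = 0.0220).

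Among the 8 that were not called, Clec4n, a receptor for fungal mannans, differed by 0.45 ± 0.23 log2 units (SE, adjusted p = 0.195). Folr2, a folate receptor of resident macrophages, differed by 0.42 ± 0.22 log2 units (SE, adjusted p = 0.214). Msr1, a receptor for modified lipoproteins, differed by 0.34 ± 0.27 log2 units (SE, adjusted p = 0.417), and Mertk, a kinase receptor used to take up dying cells, by 0.25 ± 0.15 log2 units (SE, adjusted p = 0.263). These 4 estimates were positive but their intervals include 0. Marco, a scavenger receptor for bacteria, lay near 0 at 0.09 ± 0.18 log2 units (SE, adjusted p = 0.752) and at -0.047 log2 units under quantile normalization. Clec10a, a lectin for galactose-type sugars shared with dendritic cells, lay at -0.03 ± 0.12 log2 units (SE, adjusted p = 0.899), Lyve1, the hyaluronan receptor, at -0.05 ± 0.15 log2 units (SE, adjusted p = 0.852), and Cd14, the co-receptor for bacterial lipopolysaccharide, at -0.14 ± 0.16 log2 units (SE, adjusted p = 0.559). The 95% interval of Cd14 was -0.49 to 0.20, that of Lyve1 -0.37 to 0.28 and that of Clec10a -0.28 to 0.23, so rises of the size seen for Emr1 or Lyz2 lie outside all 3.

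C1q is the recognition molecule of the classical complement pathway, and in tissue its A, B and C chains are made largely by macrophages. C1qa rose by 0.55 ± 0.12 log2 units (SE, adjusted p = 0.0226) and C1qb by 0.52 ± 0.13 log2 units (SE, adjusted p = 0.0289), while C1qc, encoded between them, differed by 0.25 ± 0.12 log2 units (SE, adjusted p = 0.178). C1qc ranged from 166 to 174 FPKM in VDRcKO_Oxarol and from 124 to 165 FPKM in WT_Oxarol. Its VDRcKO_Oxarol libraries, too, were all above the 9 wild type libraries. Whether the 3 chains differ in their response was not tested.

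Of the 5 lysosomal and bactericidal genes 4 rose. Lyz2 and Lyz1 encode the 2 mouse lysozymes, which cleave bacterial cell walls; Lyz2 is the one typical of macrophages. Lyz2 was measured at 643, 473 and 497 FPKM in VDRcKO_Oxarol, against 238, 264 and 325 FPKM in WT_Oxarol, 243, 234 and 273 FPKM in WT_PBS and 332, 241 and 254 FPKM in WT_untreated. Lyz1 was measured at 175, 122 and 124 FPKM in VDRcKO_Oxarol, against 64.7, 66.4 and 81.9 FPKM in WT_Oxarol, 68.6, 68.7 and 76.1 FPKM in WT_PBS and 94.2, 66.6 and 75.1 FPKM in WT_untreated. In both genes VDRcKO_Oxarol replicate 1 was the highest and no wild type library reached the lowest VDRcKO_Oxarol library. Lyz2 rose by 0.96 ± 0.16 log2 units (SE, adjusted p = 0.00962) and Lyz1 by 0.96 ± 0.16 log2 units (SE, adjusted p = 0.00957). The ratio of Lyz1 to Lyz2 stayed between 0.250 and 0.296 in all 12 libraries. The 2 genes are neighbours on chromosome 10, and their longest coding transcripts are 96.0% identical over 1262 aligned bases, so how reads were split between them is uncertain. Cybb encodes the catalytic chain of the phagocyte oxidase. Its values were 10.1, 7.97 and 8.41 FPKM in VDRcKO_Oxarol, against 3.96, 4.59 and 5.67 FPKM in WT_Oxarol, 4.22, 4.39 and 4.99 FPKM in WT_PBS and 6.03, 5.46 and 5.76 FPKM in WT_untreated. The VDRcKO_Oxarol libraries were again the 3 highest, and Cybb rose by 0.78 ± 0.12 log2 units (SE, adjusted p = 0.00783). Ctss, cathepsin S, trims the invariant chain of MHC class II. It stood at 212, 157 and 172 FPKM in VDRcKO_Oxarol, against 106, 106 and 117 FPKM in WT_Oxarol, 90.4, 103 and 108 FPKM in WT_PBS and 128, 104 and 82.7 FPKM in WT_untreated. The highest wild type value, in an untreated library, remained under the lowest of VDRcKO_Oxarol, and the rise was 0.70 ± 0.16 log2 units (SE, adjusted p = 0.0215). Lgmn, a lysosomal endopeptidase, was not called (0.30 ± 0.12 log2 units, adjusted p = 0.115).

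The bases before the start sites of 4 of the genes that rose are shown because these genes moved together and hold PU-box letters, for which they were picked; the sequences come from RefSeq on the build GRCm38.p6, and each holds the 250 bases before the annotated start. Of the 37 genes 24 had such a window in the table. Capitals mark GAGGAA or AGGAAGT, core letters of sites bound by the Spi1 product and other factors of its family, on either strand (TTCCTC and ACTTCCT are their complements); the motifs can overlap each other. The Lyz2 window is chr10:117282273-117282522 on the minus strand, the Lyz1 window chr10:117292869-117293118 on the minus strand, the Mrc1 window chr2:14229164-14229413 on the plus strand and the Ctss window chr3:95526536-95526785 on the plus strand.
Lyz2: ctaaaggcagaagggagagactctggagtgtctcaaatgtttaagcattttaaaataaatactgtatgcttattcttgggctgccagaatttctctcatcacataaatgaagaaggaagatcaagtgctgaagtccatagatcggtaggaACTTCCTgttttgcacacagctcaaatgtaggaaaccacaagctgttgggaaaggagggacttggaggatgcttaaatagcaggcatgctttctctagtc
Lyz1: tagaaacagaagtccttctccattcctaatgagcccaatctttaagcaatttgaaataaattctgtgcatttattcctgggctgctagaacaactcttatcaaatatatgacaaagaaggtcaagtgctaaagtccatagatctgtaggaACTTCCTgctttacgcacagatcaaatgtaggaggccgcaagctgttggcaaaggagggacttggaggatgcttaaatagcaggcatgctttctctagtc
Mrc1: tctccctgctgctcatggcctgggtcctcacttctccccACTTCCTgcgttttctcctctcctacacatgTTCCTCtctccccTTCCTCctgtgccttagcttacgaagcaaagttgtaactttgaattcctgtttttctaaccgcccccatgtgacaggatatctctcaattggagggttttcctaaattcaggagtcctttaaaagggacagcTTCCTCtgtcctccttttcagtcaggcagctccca
Ctss: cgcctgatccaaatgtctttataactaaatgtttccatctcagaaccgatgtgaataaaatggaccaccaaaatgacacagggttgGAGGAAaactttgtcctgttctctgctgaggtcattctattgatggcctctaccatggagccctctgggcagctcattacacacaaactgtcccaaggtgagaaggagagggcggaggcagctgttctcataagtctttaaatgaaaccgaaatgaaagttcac
The lysozyme windows are 80.7% identical over 248 aligned bases, and both hold ACTTCCT with its first base 100 bases before the start. Mrc1 holds 4 marked stretches. GAGGAA was found in 13 of the 24 windows (54.2%) and in 25.9% of the windows of all 27025 genes in the table. AGGAAGT was found in 7 of 24 (29.2%), against 8.80% of all windows. The longer GAGGAAGT was found only in C1qc (4.17%, against 2.79% of all windows), and GGAAGTG in 4 of 24 (16.7%, against 9.77%). A match describes the letters and does not show a bound site.

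Over the 37 genes together, the mean of log2(FPKM + 1) was 4.87, 4.66 and 4.62 in the VDRcKO_Oxarol libraries, 4.13, 4.23 and 4.34 in WT_Oxarol, 3.98, 4.03 and 4.13 in WT_PBS and 4.13, 4.02 and 3.97 in WT_untreated. The lowest VDRcKO_Oxarol library thus stood above all 9 wild type libraries. Gene by gene, all 3 VDRcKO_Oxarol libraries exceeded all 9 wild type libraries in 28 of the 37 genes, against 15.0% of all genes tested. Within each group 1 library held the top value in most of the 37 genes. VDRcKO_Oxarol replicate 1 had the top value of its group in 30 of the 37 genes, WT_Oxarol replicate 3 in 24, WT_PBS replicate 3 in 24 and WT_untreated replicate 1 in 21. The same counts over all genes were not made, so whether this is particular to the 37 genes was not tested.

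**Figure D3:**
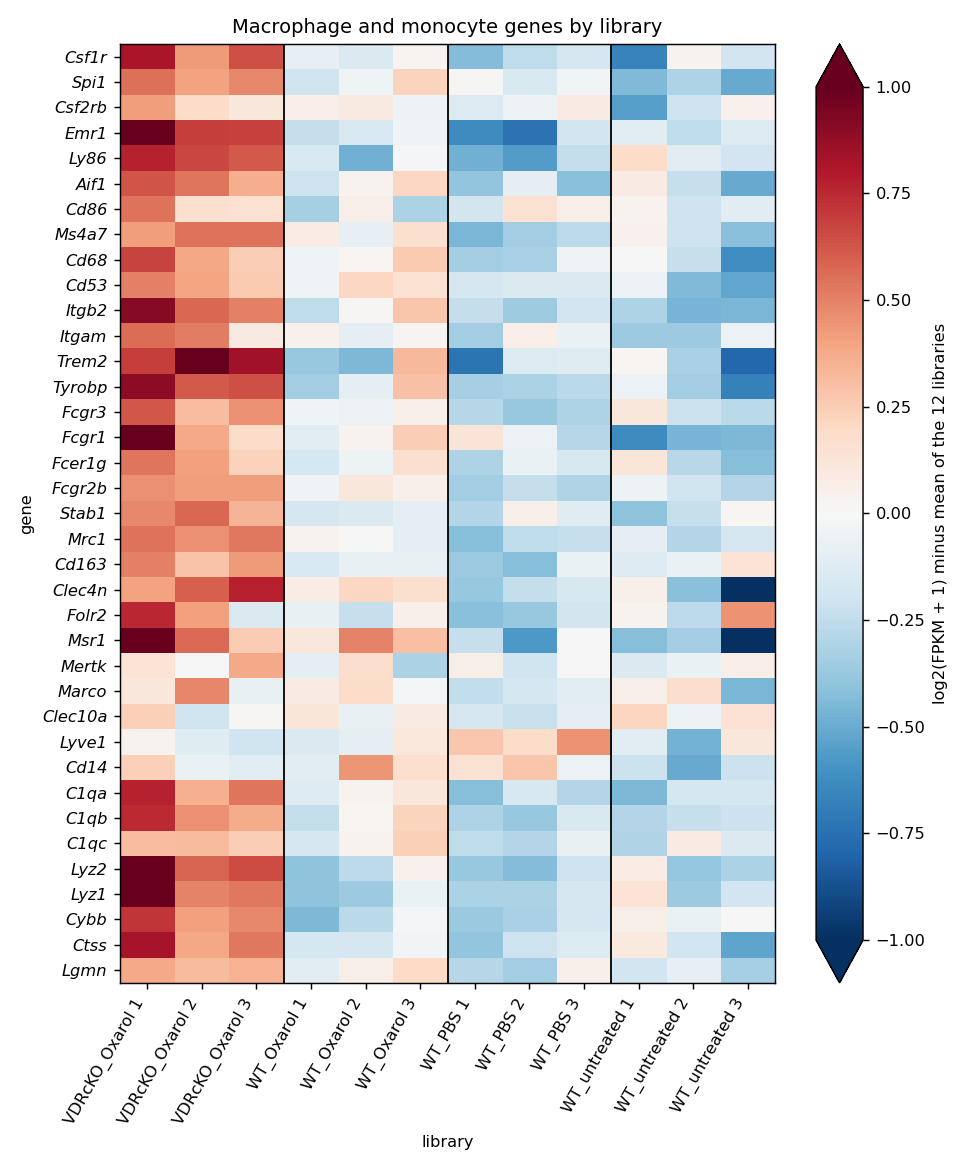
log2(FPKM + 1) of each gene in each of the 12 libraries, minus the gene's mean over the 12; rows are genes ordered by role, columns are libraries, and colours are limited to -1 and 1. The 3 VDRcKO_Oxarol columns on the left are red in nearly every row, with replicate 1 the strongest (highest of its group in 30 of 37 genes); Lyve1, Cd14 and Clec10a break the pattern.

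The size of the count depended on single libraries, and so did the share of all genes called higher, which was 8.71% as reported. The count was 6 without VDRcKO_Oxarol replicate 1 (2.43% of all genes), 12 without replicate 2 (2.40%) and 10 without replicate 3 (3.61%). It was 8 without WT_Oxarol replicate 1 (4.39%) and 7 without replicate 2 (1.49%). Emr1, Mrc1, Lyz1, Lyz2, Cybb and Ly86 were called in each of these fits. With the library series as a term 5 genes were called (Emr1, Mrc1, Fcgr2b, Cybb and Ly86), where 183 of all 14059 genes were higher, and in the second series alone, with 1 library in each wild type group and 2 residual degrees of freedom, 0 were called and 0.156% of all genes were higher. In that series alone the median difference was 0.38 over the 37 genes and 0.07 over all genes. The 3 VDRcKO_Oxarol libraries exceeded the 3 wild type libraries in 28 of 37 genes, against 22.6% of all genes tested. These 3 wild type libraries are among the 9 compared above, so this count could not fall below the 28 found there and adds no separate evidence.

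The same VDRcKO_Oxarol libraries were also set against the wild type groups without ointment, so the following counts are not independent of those above. Against WT_PBS 28 of the 37 genes were higher (10.8% of all genes tested) and 0 lower (5.49% of all; at an unadjusted p under 0.05, 1 was lower), with a median difference of 0.73 against 0.09 over all genes. The count was 17 without WT_PBS replicate 1 (2.56% of all genes were higher) and 18, 17 higher and Lyve1 lower, once a term for the series was in the fit (2.75% of all higher). Against WT_untreated 30 were higher (12.8% of all) and 0 lower (6.20% of all; 0 at an unadjusted p under 0.05), with a median of 0.69 against 0.08; in a fit of these 2 groups only, 12 were called (2.40% of all genes were higher). Emr1 differed by 1.34 ± 0.15 log2 units (SE, adjusted p = 0.00141) from WT_PBS and by 0.99 ± 0.15 log2 units (SE, adjusted p = 0.00443) from WT_untreated. Lyve1 was the lowest of the 37 against WT_PBS, at -0.39 ± 0.15 log2 units (SE, adjusted p = 0.0879). Over all 14059 genes, 4818 had an unadjusted p under 0.05 against WT_PBS and 5088 against WT_untreated, in either direction. Cd14, Mertk, Marco, Clec10a, Folr2, Lyve1 and Cd86 were called against neither, and Fcgr1 and Csf2rb against WT_untreated alone; the difference between the 2 comparisons was not tested.

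Within wild type skin limma called none of the 37 genes. In WT_Oxarol against WT_PBS, which asks for the response to the ointment, 0 were called, where 0.306% of all genes were called in either direction. An unadjusted p under 0.05 was found for 7 of the 37 (6 higher and 1 lower) and for 1047 of all 14059 genes. Differences were small and mostly positive: 32 of 37 lay above 0, against 52.1% over all genes. Their median was 0.22, against 0.01 over all genes. Fcgr2b came nearest, at 0.34 ± 0.08 log2 units (SE, adjusted p = 0.140). In WT_Oxarol against WT_untreated 0 were called, where 1.31% of all genes were. At an unadjusted p under 0.05 were 8 of the 37, all higher, and 2403 of all 14059 genes in either direction. Of the 37 differences 29 lay above 0, against 49.6% over all genes. Their median was 0.19, where that of all genes was close to 0. Msr1 had the largest difference there, 0.98 ± 0.27 log2 units (SE, adjusted p = 0.113). Without WT_untreated replicate 1 Clec4n and Cd53 were called (1.19% of all genes were higher), and without WT_Oxarol replicate 1 Spi1 was (1.14%). In WT_PBS against WT_untreated 0 were called, where 0.00711% of all genes were. Here 8 of the 37 (3 higher and 5 lower) and 1312 of all 14059 genes had an unadjusted p under 0.05. The median over the 37 was -0.01 and 18 of them lay above 0, against 50.7% over all genes.

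**Figure D4:**
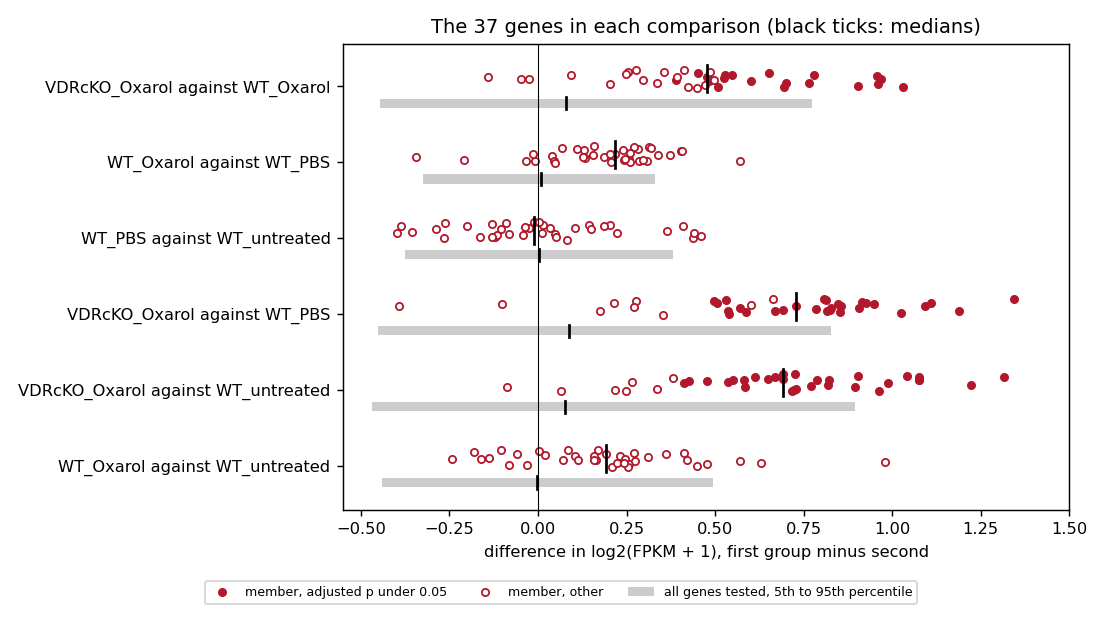
Differences in log2(FPKM + 1) of the 37 genes (points, filled where the adjusted p was under 0.05) in the 6 comparisons, first group minus second. Grey bars span the 5th to 95th percentile of all genes tested and black ticks are medians. The points sit to the right of 0 in the 3 comparisons that hold VDRcKO_Oxarol (medians 0.48, 0.73 and 0.69) and spread about 0 in WT_PBS against WT_untreated.

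Other genes of macrophage biology, taken from lists by role, were read in the same fit of VDRcKO_Oxarol against WT_Oxarol. Of all genes tested, 8.71% were higher in this fit and 4.43% lower. An unadjusted p under 0.05 was found for 4531 of all 14059, in either direction. Of 18 growth factors and transcription factors tested, 5 were higher and 0 lower (10 higher and 0 lower at an unadjusted p under 0.05), with a median of 0.40. They included Cebpa, a myeloid and keratinocyte factor (1.01 ± 0.16 log2 units, adjusted p = 0.00765), Runx1, a haematopoietic regulator (0.53 ± 0.12 log2 units, adjusted p = 0.0244), Mitf, a factor of melanocytes and osteoclasts (0.37 ± 0.11 log2 units, adjusted p = 0.0460), and Irf8, a factor of monocytes and dendritic cells (0.51 ± 0.15 log2 units, adjusted p = 0.0476). Of 49 further receptors and signalling genes of macrophages 14 were higher and 0 lower, with a median of 0.40. They included the oxidase subunit Ncf4 (1.06 ± 0.12 log2 units, adjusted p = 0.00284), the complement receptor C3ar1 (0.77 ± 0.12 log2 units, adjusted p = 0.00758), the inhibitory receptor Pirb, deposited as Lilrb3 (0.75 ± 0.12 log2 units, adjusted p = 0.00870), and the inhibitory lectin Clec12a (1.00 ± 0.16 log2 units, adjusted p = 0.00881).

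Lysosomal genes followed the same direction. Of 24 lysosome and phagocytosis genes 13 were higher and 0 lower, with a median of 0.48. Gpnmb, a lysosomal membrane glycoprotein, rose by 1.00 ± 0.12 log2 units, adjusted p = 0.00303. Lipa, the lysosomal acid lipase, rose by 0.95 ± 0.12 log2 units, adjusted p = 0.00385. Grn, the progranulin gene, rose by 0.83 ± 0.11 log2 units, adjusted p = 0.00507, and the protease gene Ctsl by 0.87 ± 0.13 log2 units, adjusted p = 0.00758. Of 12 classical complement genes other than C1q, 5 were higher and 0 lower, with a median of 0.63: the C1r genes C1ra (0.66 ± 0.12 log2 units, adjusted p = 0.0109) and C1rb (0.60 ± 0.12 log2 units, adjusted p = 0.0151), which are close copies, C2 (0.76 ± 0.14 log2 units, adjusted p = 0.0121), the alternative pathway factor Cfb (0.77 ± 0.17 log2 units, adjusted p = 0.0202) and C4b (1.59 ± 0.38 log2 units, adjusted p = 0.0262). Of the monocyte recruitment and state genes 2 of 18 were higher and 0 lower, a share near the 8.71% of all genes tested that were higher. The 2 were the matrix gene Fn1 (1.00 ± 0.17 log2 units, adjusted p = 0.00920) and the clotting factor subunit F13a1 (0.55 ± 0.15 log2 units, adjusted p = 0.0376). This list had a median of 0.32 and 8 of 18 at an unadjusted p under 0.05, where 4531 of all 14059 genes passed in either direction.

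Markers of other cell types moved in the same comparison, and their part in the result was not tested. Their counts stand beside the same 8.71% of all genes tested that were higher. Counts at an unadjusted p under 0.05 stand beside 4531 of all 14059 genes, in either direction. Pan-leukocyte genes had 6 of 15 higher and 0 lower, with a median of 0.43; Rac2, a small GTPase of blood cells, rose by 0.86 ± 0.10 log2 units, adjusted p = 0.00303, Lcp1, a leukocyte actin bundler, by 0.52 ± 0.09 log2 units, adjusted p = 0.0117 and the surface glycoprotein gene Cd52 by 0.85 ± 0.18 log2 units, adjusted p = 0.0187. Of 12 T cell genes 3 were higher and 0 lower, the receptor chains Cd3e (0.62 ± 0.12 log2 units, adjusted p = 0.0162), Cd3g (0.63 ± 0.14 log2 units, adjusted p = 0.0206) and Il2rb (0.75 ± 0.16 log2 units, adjusted p = 0.0180). Of 17 Langerhans and dendritic cell genes 3 were higher and 0 lower: Epcam (0.83 ± 0.17 log2 units, adjusted p = 0.0180), the class II regulator Ciita (0.49 ± 0.11 log2 units, adjusted p = 0.0207) and the class II chain H2-Eb1 (0.54 ± 0.14 log2 units, adjusted p = 0.0327). None was called in the neutrophil (8 tested), mast cell (10), B cell (2) and eosinophil and basophil (3) lists, with 1, 3, 0 and 0 at an unadjusted p under 0.05. Of the 3 mast cell genes 2 lay above 0, and Tpsab1 lay below, at -0.59 log2 units. The neutrophil level, a mean of log2(FPKM + 1) over 15 genes, was 1.64 to 1.87 in VDRcKO_Oxarol and 1.52 to 1.65 in WT_Oxarol, and 7 of the 15 genes stayed under 1 FPKM in all 12 libraries. Against WT_untreated 6 of the 8 neutrophil genes tested were higher in VDRcKO_Oxarol (median 0.84), with a level of at least 1.45 in WT_PBS and of 0.81 to 1.03 in WT_untreated. In that comparison 11 of 15 pan-leukocyte and 9 of 16 fibroblast genes were also higher, and 3 of 14 striated muscle genes were lower (list median -0.56). Of all genes tested, 12.8% were higher there and 6.20% lower. Against WT_PBS 1 of 8 neutrophil, 12 of 15 pan-leukocyte and 8 of 16 fibroblast genes were higher, beside 10.8% of all genes tested. The part of these genes in the counts against WT_PBS and WT_untreated was not tested.

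Genes of the dermis and appendages were read against the 8.71% of all genes tested that were higher. At an unadjusted p under 0.05 they were read against 4531 of all 14059 genes, in either direction. Of 16 fibroblast genes 7 were higher and 0 lower (median 0.62), among them Col3a1 (1.46 ± 0.28 log2 units, adjusted p = 0.0148) and Fbn1 (0.74 ± 0.13 log2 units, adjusted p = 0.0121); their mean level was 6.40 to 6.57 in VDRcKO_Oxarol and 5.66 to 5.91 in WT_Oxarol. Of 14 blood endothelial genes Vwf (0.50 ± 0.15 log2 units, adjusted p = 0.0498) and Pecam1 (0.40 ± 0.12 log2 units, adjusted p = 0.0499) were higher and 0 lower (median 0.44). Cartilage genes had 8 of 15 higher (median 0.76), striated muscle genes 1 of 14, a share below that of all genes, the calcium-binding protein gene Pvalb (1.05 ± 0.30 log2 units, adjusted p = 0.0429, list median 0.38), and both had 0 lower. In none of the lists with a called gene was a gene lower at an unadjusted p under 0.05. In the lymphatic list, whose vessels share Lyve1, 0 of 8 were called, with a median of -0.05. There 2 had an unadjusted p under 0.05, of which 1 lay above 0. In the basal keratinocyte list 0 of 12 were called, with a median of -0.08 and 3 at an unadjusted p under 0.05, of which 2 lay above 0. The mean level of this list was 5.50 to 5.60 in VDRcKO_Oxarol and 5.32 to 5.70 in WT_Oxarol.

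Of 20 hair follicle genes, mostly hair keratins, 16 were higher and 0 lower, with a median of 3.70. Their mean level was 5.34, 4.60 and 3.53 in VDRcKO_Oxarol, 1.90, 0.59 and 0.50 in WT_Oxarol, 0.52, 0.91 and 3.61 in WT_PBS and 0.64, 0.84 and 2.87 in WT_untreated. The part of this difference in the counts above was not tested. With WT_PBS replicate 3 and WT_untreated replicate 3 both left out, 19 of the 37 genes were called against WT_Oxarol (8.92% of all were higher). The count was 27 against WT_PBS (10.6% of all) and 28 against WT_untreated (12.2% of all). The 3 VDRcKO_Oxarol libraries, with their high hair follicle levels, remained in these fits.

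**Figure D5:**
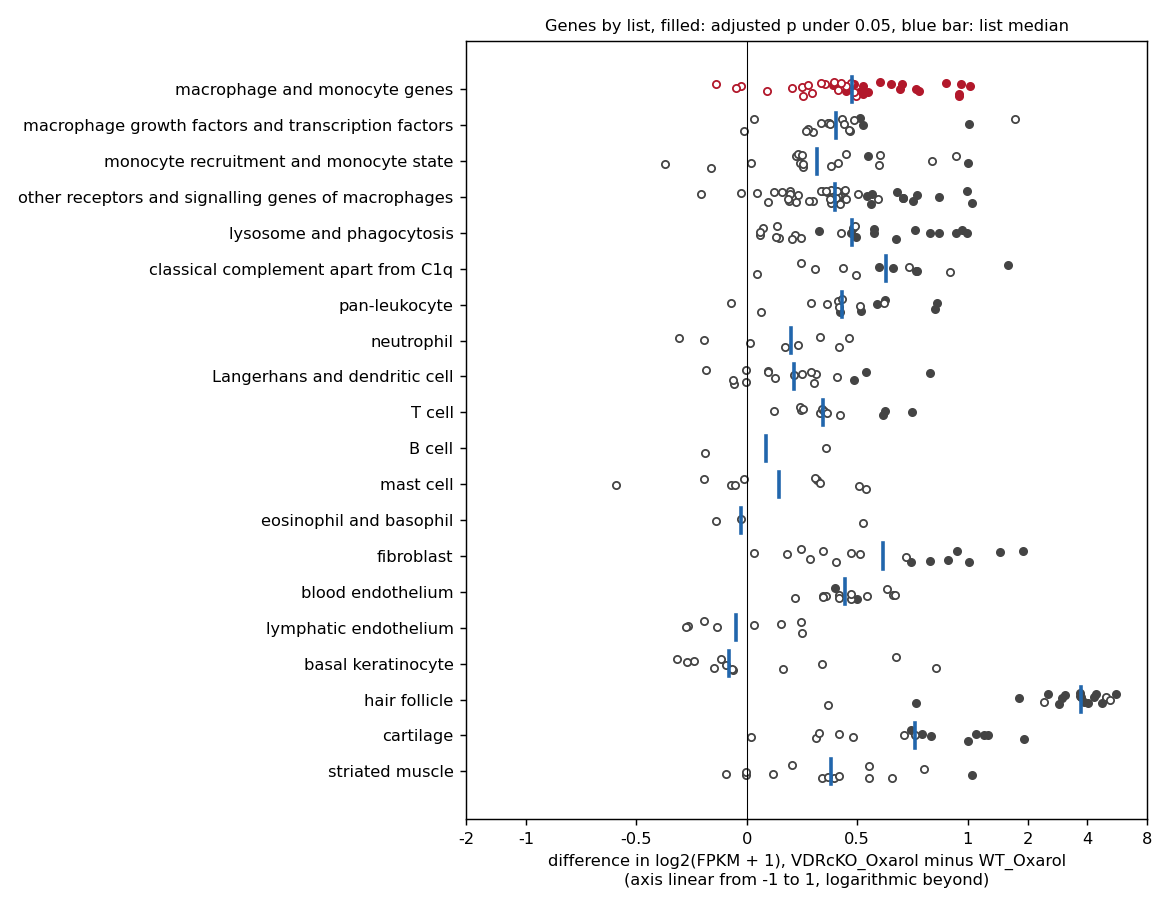
Differences in log2(FPKM + 1), VDRcKO_Oxarol minus WT_Oxarol, for the 37 genes (red, top) and each other list (grey); filled points have an adjusted p under 0.05 and blue bars are list medians. The axis is linear from -1 to 1 and logarithmic beyond. The 37 genes (median 0.48) sit close to the lysosome (0.48), blood endothelium (0.44) and pan-leukocyte (0.43) lists, and hair follicle genes (3.70) lie far to the right.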

How the data were processed

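RNA of ear skin was made into libraries with the NEBNext Ultra kit (labels' protocols). TopHat2 2.0.8, Bowtie2 2.1.0, Cufflinks 2.1.1 and build mm9 are named in the submitters' processing notes, per the labels; settings and strandedness are not given there, so reads of genes that overlap may be mixed. The deposited tables hold 1 value per symbol, made by the authors and read as FPKM, going by Cufflinks and the range, since no unit is printed.

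Values were tested as log2(FPKM + 1), pseudocount 1, in limma 3.58.1 (R 4.3.3) with 4 group means, 8 residual degrees of freedom and a trended variance. The filter asked for 1 FPKM or more in 3 or more of the 12 libraries and left 14059 genes, over which Benjamini-Hochberg adjustment ran, at 0.05. The pseudocount understates changes of low genes. Errors marked SE are limma's moderated ones, and intervals are 95% intervals of that fit, which was tested on simulated data. Replicates are numbered by order of deposit, and no pairing is implied. Depth was estimated from the steps of low values. Sequences are RefSeq windows on GRCm38.p6; identities come from local alignment of GENCODE M21 transcripts. Neither is on the build of the files. Plots were made in matplotlib 3.10.9 under Python 3.11.15.

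The 37 genes and the other gene lists were chosen with earlier results of these data known. Per-library values are given for the 12 genes with the smallest adjusted p in VDRcKO_Oxarol against WT_Oxarol and for Emr1, Csf1r and Spi1, the rule also covering genes called within wild type and genes listed at 0 in single libraries, of which there were none; from other lists up to 4 genes by adjusted p are named, and any beyond that after their values were seen. A gene that the rule would name is not reported here. The alternatives were 0.1 as pseudocount, 5 FPKM as filter or none, quantile or median-of-ratios scaling, a fit of the 2 compared groups, a term for the series of library codes, its first series by itself, array weights, a robust variance and each library left out. The second series alone, and leaving out WT_untreated replicate 3 with WT_PBS replicate 3, were added after seeing the data.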

Additional observations from a re-analysis of the deposited data

How the results depend on the processing

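No paired analysis was possible because the labels give no replicate numbers. The count of the 37 genes called in VDRcKO_Oxarol against WT_Oxarol, 19 as reported, was 5 with a term for the library series and 0 in the second series alone; leaving out 1 library gave 6 to 23. Against WT_PBS, 28 as reported, it was 18 with the series term and 0 in the second series alone, and 17 to 29 with 1 library left out; Lyve1 was called lower under quantile and median-of-ratios scaling, in the fit of 2 groups, with the series term, with array weights and without WT_untreated replicate 2. Against WT_untreated, 30 as reported, it was 12 in the fit of 2 groups and 0 in the second series alone, and 22 to 29 with 1 library left out. The second series holds 1 library per wild type group and leaves 2 residual degrees of freedom. Within wild type, array weights called 3 genes in WT_Oxarol against WT_PBS (Mrc1, Fcgr2b and Ms4a7) and 4 in WT_Oxarol against WT_untreated (Cd14, Fcgr2b, Clec4n and Cd53), where leaving out 1 library gave 0 to 2. Array weights also raised the calls over all genes. They put 1.26% of all genes higher and 1.3% lower in WT_Oxarol against WT_PBS, and 2.49% higher and 1.5% lower in WT_Oxarol against WT_untreated. The cause of these changes was not tested, and the smaller fits also hold fewer samples. The signs of 3 genes that were not called turned: Marco was at -0.047 under quantile normalization. With 1 library left out Marco ranged from -0.064 (without VDRcKO_Oxarol replicate 2) to 0.217, Clec10a from -0.136 to 0.083 (without VDRcKO_Oxarol replicate 2; 0.014 without WT_Oxarol replicate 1), and Lyve1 from -0.113 to 0.027 (without WT_Oxarol replicate 3; also above 0 without VDRcKO_Oxarol replicate 3). Quantile normalization put the median over all genes at -0.04, against 0.08 as reported, and that over the 37 genes at 0.41. Emr1, Ly86, Mrc1 and Cybb passed the threshold in 22 of 23 alternatives. Filters, pseudocount and the robust model kept all counts within 1.5 times those reported. A filter of 5 FPKM tested 31 of the 37 genes. By estimate the VDRcKO_Oxarol libraries are among the shallow ones, and depth limits genes near 1 FPKM such as Marco and Fcgr1.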

Other observations

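Some genes listed for monocytes and neutrophils, outside the 37, differed within wild type skin, in WT_Oxarol against WT_untreated (differences in log2(FPKM + 1) ± SE, limma adjusted p, means ± SD, n = 3). They were taken from the other gene lists and named after their values were seen. Of all genes tested, 0.989% were higher in this comparison and 0.32% lower. Ccr1, a chemokine receptor of monocytes and neutrophils, averaged 3.18 ± 0.90 FPKM in WT_Oxarol and 0.859 ± 0.27 FPKM in WT_untreated, a rise of 1.16 ± 0.20 (adjusted p = 0.0261). Chi3l3, a chitinase-like protein secreted by macrophages, averaged 4.79 ± 1.78 FPKM in WT_Oxarol and 0.281 ± 0.16 FPKM in WT_untreated, a rise of 2.14 ± 0.29 (adjusted p = 0.00958). Among 8 genes tested from the neutrophil list, S100a8 rose by 3.22 ± 0.49 (adjusted p = 0.0155) and S100a9 by 1.99 ± 0.34 (adjusted p = 0.0262), and the median over the 8 was 0.79. Of the 15 genes on this list 7 stayed under 1 FPKM in all 12 libraries, and which cells the RNA came from was not tested. In WT_PBS against WT_untreated the median over the same 8 genes was 0.92, with 0 called and all 8 above 0. There 6 of the 8 and 1312 of all 14059 genes had an unadjusted p under 0.05. A shift of like size thus stood in skin given PBS, and the 2 comparisons share the WT_untreated libraries. Of 49 further macrophage receptor and signalling genes 4 rose: the lectin Clec4d (1.16 ± 0.19, adjusted p = 0.0216), Ms4a6d (0.97 ± 0.18, adjusted p = 0.0361), the kinase gene Fgr (0.66 ± 0.13, adjusted p = 0.0379) and the protease gene Adam8 (0.86 ± 0.18, adjusted p = 0.0469). In WT_Oxarol against WT_PBS no gene of these 3 lists was called by limma. At an unadjusted p under 0.05, 1 of 8 neutrophil genes was lower in WT_Oxarol and 0 higher. At that threshold 8 of the 49 receptor and signalling genes and 2 of 18 genes of monocyte recruitment and state were higher. Of all 14059 genes tested, 1047 passed it in either direction. Whether WT_Oxarol against WT_PBS and WT_Oxarol against WT_untreated differ was not tested.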
